A study of Mus musculus with 18 samples.

Results

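The cytosolic ribosomal protein genes are the 87 protein-coding genes, of 24052 in the deposited tables, whose symbol is Rpl or Rps with a number, or Rplp0, Rplp1, Rplp2 or Rpsa. Of these, 54 carry large-subunit and 33 small-subunit symbols, and 10 are named as paralogues or retrotransposed copies, such as Rpl22l1 and Rps27l. The ribosomal S6 kinases (10 genes), the pseudogenes, and Rps19bp1 and Rps23rg1, which do not encode ribosomal proteins, were left out. Symbols chose the members, and no measured value did.

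Each ribosome holds a fixed set of these proteins, and their mRNAs are among the most abundant of a cell. Most ribosomal protein mRNAs of mammals begin with a 5′ terminal oligopyrimidine (TOP) tract, through which mTOR signalling and the RNA-binding protein LARP1 control their translation. Level and translation of these mRNAs can therefore move separately, and the measurements here are of mRNA alone.

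Macrophages were grown from C57BL/6 mouse bone marrow in 20 ng/ml M-CSF, and their polyadenylated RNA was counted at its 3′ end in 18 libraries, 3 per group. Experiment 1 used WT cells. DI+LPS cells received 0.25 mM dimethyl itaconate (DI, an ester of the macrophage metabolite itaconate) for 12 h and then 100 ng/ml E. coli LPS for 4 h. DI cells received the ester without LPS, LPS cells received vehicle and then LPS, and unstimulated cells (Unst) received vehicle and no LPS. Experiment 2 compared Irg1-/- cells, which lack the enzyme that makes itaconate, with WT cells, both after 24 h of LPS (100 ng/ml) and IFNg (50 ng/ml). The experiments were counted in separate tables, so no level is compared between them. Whether replicates came from separate animals or cultures is not given, so p-values measure the spread between these libraries, which may be technical.

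Libraries held 955718 to 7629669 counts, and LPS library 3 was the shallowest. Counts of Acod1 (Irg1), the targeted gene, were 149, 56 and 182 in Irg1-/- libraries and 12464, 14630 and 19145 in WT libraries. The 8 macrophage markers summed to at least 2179 CPM (counts scaled to a common library total) in every library, all 4 erythroid markers were at 0, and B cell markers and T and NK cell markers each summed to at most 1.06 CPM. LPS library 3 stood apart from the rest of its group. Prdx1, a peroxiredoxin, took 17.6% of its counts. Of 76 members with a mean of at least 50 counts, 7 (Rpl29, Rpl41 and Rps2 among them) had in it a share over 4 times below the lower share of the other LPS libraries, against 2 such members (Rpl29 and Rps12) in Unst library 2 and 0 in every other library. Rps2 had 0 counts there and Rpl41 had 2, against 206 and 1225 in LPS library 1. Calls of named members that rest on this library are given with and without it, and so are the directions of several named members that turned.

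Of the 87 members, 76 were detected in all 18 libraries, and 79 passed the filter on low counts in each experiment. Rpl10l, Rpl26 and Rps27rt were at 0 in all 18 libraries, and Rpl34, Rpl30, Rpl32l and Rps27 had totals of 4, 5, 7 and 14 counts. These 7 were not tested, and neither was the paralogue Rpl3l in experiment 1 or Rpl39l in experiment 2. RefSeq names 319 pseudogenes after 63 of the members, among them 24 after Rpl31 and 23 after Rps12, and 8 ribosomal protein pseudogenes have a row in the tables. Counts of members with near-identical copies are therefore uncertain.

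The sequence around the transcription start is shown for 5 members: Rpl24, Rps12 and Rpl37, which passed the test in experiment 1, and Rps9 and Rpsa, which are described beside them. Each line runs from 50 bases before to 20 bases after the start in the RefSeq promoter table (GRCm38.p6), 5′ to 3′ on the strand of the gene. Capitals mark a run of at least 7 pyrimidines within 20 bases of the start, or the letters CCGGAAG on either strand, the core to which ETS factors bind. The starts used for Rps12 and Rps9 lie 174 and 87 bases inside the outer bounds of their genes.
Rpl24, chr16:55966225-55966294, plus strand: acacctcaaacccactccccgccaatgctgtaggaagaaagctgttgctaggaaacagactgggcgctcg
Rps12, chr10:23787190-23787259, minus strand: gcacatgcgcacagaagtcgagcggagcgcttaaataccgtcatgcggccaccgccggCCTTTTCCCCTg
Rpl37, chr15:5116563-5116632, plus strand: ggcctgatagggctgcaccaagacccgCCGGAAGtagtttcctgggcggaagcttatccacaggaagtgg
Rps9, chr7:3703991-3704060, plus strand: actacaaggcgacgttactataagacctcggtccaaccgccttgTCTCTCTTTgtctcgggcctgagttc
Rpsa, chr9:120127716-120127785, plus strand: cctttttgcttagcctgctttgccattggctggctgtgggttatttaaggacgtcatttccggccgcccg
Rps12 and Rps9 hold such a pyrimidine run, Rpl37 holds CCGGAAG, and the windows of Rpl24 and Rpsa hold neither.

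The promoter table held 79 promoters for 67 of the 87 members, each with 250 bases before and 50 after the start. The pyrimidine run was present in 51.9% of them, against 24.3% of all 32851 promoters. CCGGAAG, on either strand, was present in 34.2% of member promoters and in 8.86% of all promoters. AAGATGG, a motif of the factor YY1, was in 15.2% and 6.34%, and TCTCGCGAG, an element of housekeeping promoters, was in 10.1% and 0.676%. The 7 members with TCTCGCGAG were Rpl10a, Rpl12, Rpl26, Rpl27a, Rps19, Rps28 and Rps6. A match is a description of the letters, not of binding.

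As a share of all counts, ribosomal protein mRNA was highest in resting macrophages and lower in each treated group. It made up 2.74, 2.34 and 2.75% of the counts of DI+LPS libraries, 3.52, 3.49 and 3.44% of DI libraries, 2.60, 2.33 and 1.98% of LPS libraries and 5.11, 4.64 and 4.51% of Unst libraries. Every library of the 3 treated groups lay below every Unst library, and DI+LPS and LPS libraries overlapped. The mean share was 2.30 ± 0.31% in LPS cells against 4.75 ± 0.31% in Unst cells (SD, n = 3 each), a 2.06-fold lower value. It was 3.48 ± 0.04% in DI cells, 1.36-fold below Unst cells, and 2.61 ± 0.24% in DI+LPS cells, 1.33-fold below DI cells. No test was run on these sums.

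These shares depended on what the counts were divided by. After TMM scaling, which sets the libraries level over the bulk of genes, the share was 3.21, 2.94 and 3.45% in DI+LPS libraries, 2.76, 3.02 and 2.75% in DI libraries, 3.24, 2.998 and 3.44% in LPS libraries and 3.48, 3.51 and 3.16% in Unst libraries. On that scale LPS and Unst libraries overlapped, with a log2 ratio of -0.07 against -1.04 on all counts. DI libraries stayed below Unst libraries. DI+LPS cells were above DI cells by 0.17 in the log2 ratio of means, against -0.42 on all counts. Their libraries overlapped after TMM scaling, with DI+LPS library 2 (2.94%) below DI library 2 (3.02%). With library totals alone, the median of all tested genes shifted by -1.17 (log2) between LPS and Unst cells, so the lower share was common to most genes. Summed macrophage markers were also lower on library totals, with 3237 to 4319 CPM in DI+LPS cells, 3501 to 5061 in DI cells, 2709 to 3839 in LPS cells and 8037 to 10984 in Unst cells. Neutrophil markers summed to 215 to 338 CPM in DI+LPS cells, 179 to 320.1 in DI cells, 149.6 to 289.8 in LPS cells and 349.97 to 517 in Unst cells. Stromal markers summed to 19.97 to 32.4 CPM in DI+LPS cells, 22.5 to 29.4 in DI cells, 15.3 to 40.4 in LPS cells and 41.4 to 73.6 in Unst cells, with none of the 4 at 0 in a whole group. Dendritic cell markers summed to 0.336 to 1.49 CPM in DI+LPS cells, 0.450 to 2.23 in DI cells, 0 to 4.52 in LPS cells and 4.14 to 8.97 in Unst cells, with Flt3 at 0 in all 4 groups. After TMM scaling the 8 macrophage markers had a median log2 fold change of -0.84 for DI against Unst. EdgeR called 0 of them higher and 2 lower (25%, against 1.51% of all genes). For LPS against Unst the median was -0.21, with 1 higher and 2 lower (12.5% and 25%, against 16% and 18.4%). For DI+LPS against DI it was 0.60, with 3 higher and 0 lower (37.5% and 0%, against 11.4% and 7.56%). The part of these lists in the shares was not tested, and in bulk RNA fewer cells of a type and less RNA per cell cannot be told apart.

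**Figure D1:**
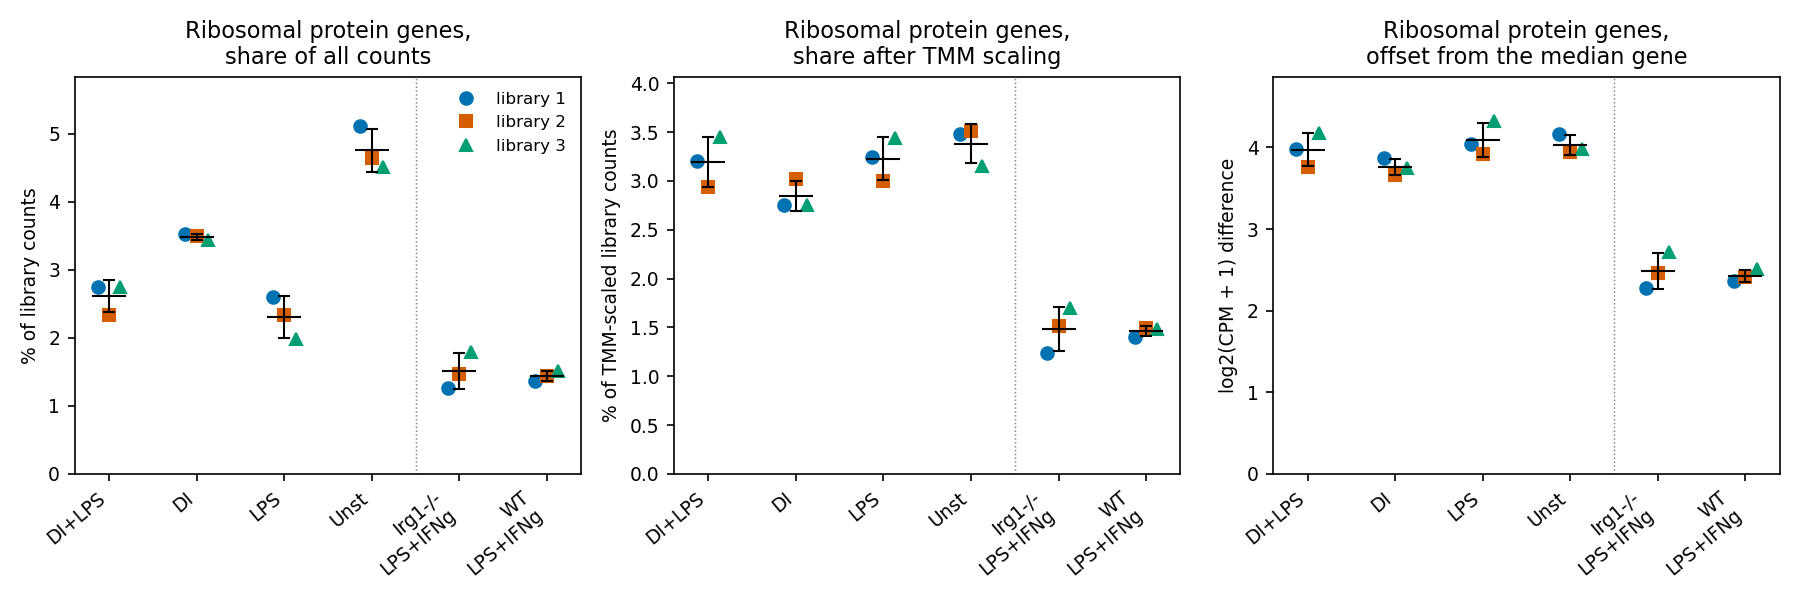
Ribosomal protein genes in each library, as a percentage of all counts (left), as a percentage of TMM-scaled counts (middle) and as an offset (right). The offset is the median log2(CPM + 1) of members tested in either experiment minus that of the genes with the highest mean level, as many as were tested. Symbols are libraries, bars the mean and SD of 3, and the dotted line separates the experiments. On all counts, Unst libraries (4.51% to 5.11%) lie above the other groups of experiment 1, and after TMM scaling LPS and Unst libraries overlap.

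Relative to the median gene, a measure that scaling factors barely move, the median ribosomal protein mRNA stayed within 0.31 of it (log2) in each comparison. Single members spread further, with fold changes from -1.53 to 0.90 (log2) for LPS against Unst. The median member minus the median of all genes tested was -0.03 for DI+LPS against LPS, 0.31 for DI+LPS against DI, 0.11 for LPS against Unst and -0.22 for DI against Unst. With library totals in place of TMM these differences were -0.03, 0.30, 0.08 and -0.23. Leaving out 1 library at a time gave 0.23 to 0.40 for DI+LPS against DI and -0.29 to -0.19 for DI against Unst. For LPS against Unst the range was 0.04 to 0.19, and for DI+LPS against LPS it crossed 0 (-0.12 to 0.05). Large- and small-subunit genes had similar medians: between DI and Unst cells their medians were -0.28 (48 genes) and -0.25 (31 genes).

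**Figure D2:**
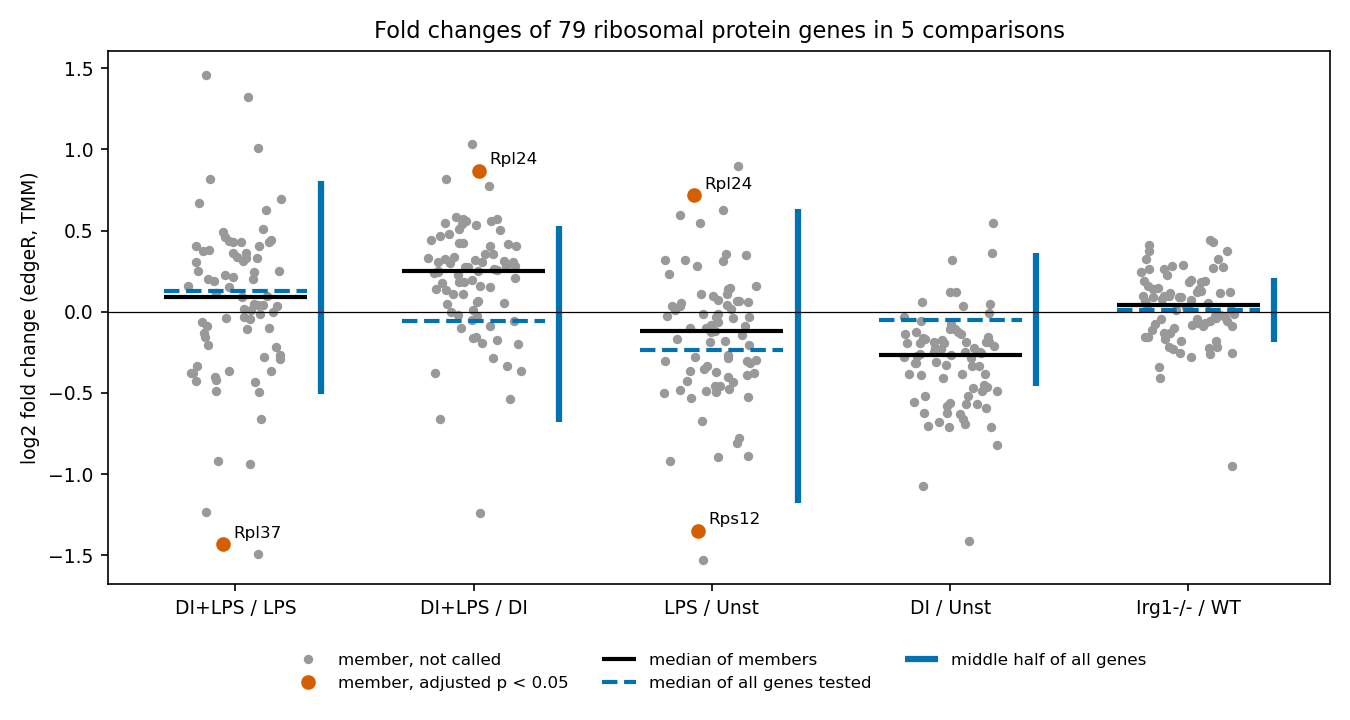
Fitted log2 fold change of each of 79 ribosomal protein genes (grey points; orange and labelled where the adjusted p was under 0.05) in 5 comparisons, with the median of members (black), the median of all tested genes (dashed) and the middle part of all genes (blue bar, quartiles). Members are spread less than all genes in every comparison of experiment 1, and the median of members lies above that of all genes for DI+LPS / DI and below it for DI / Unst.

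Few ribosomal protein genes passed the test after LPS alone. In LPS against Unst cells, edgeR's quasi-likelihood test with Benjamini-Hochberg adjustment called 1 of 79 members higher (Rpl24) and 1 lower (Rps12), while it called 16% of the 10285 genes higher and 18.4% lower. DESeq2 called 1 higher and 8 lower, against 1719 and 2444 over all genes. DESeq2 was run without the edgeR filter and applied its own. Its counts over all genes, here and below, are therefore not shares of the 10285 genes, and no share was taken. The groups did not overlap, LPS above Unst, for 1 member (1.27%, against 16.6% of all genes) and LPS below Unst for 10 (12.7%, against 27.4%). With library totals in place of TMM, 63 members were called lower and 0 higher, against 48.1% and 8.29% of all genes, and all 28 members above 0 turned below 0. Without LPS library 3, 14 of these 28 members turned below 0 and 9 of the 51 below 0 turned above it, none of them called. Among those that turned below 0, Rpl36al went from 0.28 to -0.12, Rpl13 from 0.057 to -0.083 and Rpl39 from 0.059 to -0.11. In DI+LPS against LPS the same omission turned 7 of 46 members below 0 and 6 of 33 above it, again with none called. Among them, Rplp1 went from -0.37 to 0.44, Rpl11 from -0.28 to 0.26, Rps27l from -0.13 to 0.37 and Rps23 from 0.41 to -0.04.

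Rpl24, a large-subunit protein at the interface of the subunits, had 668, 590.1 and 628 CPM (TMM-scaled) in LPS cells and 458, 333 and 355 CPM in Unst cells. Every LPS library lay above every Unst library. The log2 fold change was 0.72 ± 0.26 (SE; adjusted p = 0.0394) by edgeR. The call held in 4 of 12 fits that left out 1 library (0.62 to 0.86; adjusted p by edgeR 0.0210 to 0.127). It was lost without Unst library 2 or 3, DI 1 or 3, LPS 1 or 2, or DI+LPS 1 or 3. On library totals the value was -0.25, so its rise is relative to the median gene, not to all counts.

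Rps12, a small-subunit protein, had 24.5, 11.2 and 5.45 CPM in LPS cells and 58.1, 11.6 and 46.3 CPM in Unst cells. Unst library 2 was low, and the groups overlapped. The log2 fold change was -1.35 ± 0.51 (SE; adjusted p = 0.0475) by edgeR, and Rps12 is the member with 23 named pseudogenes. The call held in 2 of 12 fits that left out 1 library (-2.11 to -0.95; adjusted p by edgeR 0.00576 to 0.215), those without Unst library 2 or LPS library 1. Without LPS library 3 it was -1.06 (adjusted p by edgeR 0.0869), and without Unst library 1 it was -0.95 (0.215).

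Among members that did not pass, Rps2, a small-subunit protein near the mRNA entry, had 68.2, 56.1 and 0 CPM in LPS cells and 125, 58.5 and 205 CPM in Unst cells. The 0 came from LPS library 3. Its log2 fold change was -1.53 ± 0.60 (SE; adjusted p = 0.0581) by edgeR, and -1.02 (adjusted p 0.0372) without that library. Rpl13a, which in human monocytes leaves the ribosome to silence inflammatory mRNAs, had 565, 422 and 198 CPM in LPS cells and 823, 652 and 614 CPM in Unst cells. All LPS libraries lay below all Unst libraries, with a log2 fold change of -0.81 ± 0.33 (SE; adjusted p = 0.0656) by edgeR. It was -0.46 (adjusted p by edgeR 0.182) without LPS library 3, the lowest.

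Dimethyl itaconate alone was followed by slightly lower values across the members, none of which passed the test. In DI against Unst cells edgeR called 0 of 79 members higher and 0 lower, against 1.33% and 1.51% of all genes. At an unadjusted p under 0.05 there were 7 members. No share of all genes was taken at that threshold, here or below, so such counts of members or lists are not read as a result. DESeq2 called 1 (Rpl36a, lower), against 295 higher and 324 lower over all genes. Log2 fold changes were below 0 for 71 of 79 members (89.9%), against 53.1% of all genes. DI libraries all lay below Unst libraries for 18 members (22.8%, against 16% of all genes) and above them for 2 (2.53%, against 14.6%). The median log2 fold change of members was -0.27 (quartiles -0.50 and -0.17) and that of all genes -0.05. The median offset of members from all genes was below that of Unst cells in every DI library. In every other pair of groups compared, the libraries overlapped on this offset.

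Rpl36a, a large-subunit protein, had 196, 261 and 203 CPM in DI cells and 338, 360.4 and 379 CPM in Unst cells. The groups did not overlap, and the log2 fold change was -0.71 ± 0.26 (SE; adjusted p = 0.200) by edgeR. Rps6, the protein phosphorylated by the S6 kinases downstream of mTOR, had 151, 139 and 146 CPM in DI cells and 254, 268 and 149 CPM in Unst cells, and 1 Unst library lay among the DI libraries. Its log2 fold change was -0.62 ± 0.28 (SE; adjusted p = 0.330) by edgeR. Rpsa, the small-subunit protein also known as the laminin receptor precursor, went the other way: it had 391, 517 and 392 CPM in DI cells and 222, 385 and 283 CPM in Unst cells. Every DI library lay above every Unst library, with a log2 fold change of 0.55 ± 0.30 (SE; adjusted p = 0.443) by edgeR, which did not pass.

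In cells given DI, LPS was followed by values slightly above the median gene. In DI+LPS against DI cells edgeR called 1 of 79 members higher and 0 lower, against 11.4% and 7.56% of all genes. At an unadjusted p under 0.05 there were 3 members, with no share of all genes to set beside them. DESeq2 called 1 higher (Rpl24) and 3 lower (Rps12 and Rpsa among them), against 1201 and 1305 over all genes. Log2 fold changes were above 0 for 60 of 79 members and below 0 for 19 (24.1%, against 52.5% of all genes below 0). The median of members was 0.25, against -0.06 over all genes. That direction holds relative to the median gene: with library totals the median of members was -0.34 and that of all genes -0.64. On library totals 56 of the 60 members above 0 turned below it, with 0 of these called. DI+LPS libraries all lay above DI libraries for 14 members (17.7%, against 22.3% of all genes) and below them for 3 (3.80%, against 22.3%). The median offset of members by library (log2) overlapped, with 3.76 to 4.17 in DI+LPS cells and 3.66 to 3.86 in DI cells.

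Rpl24 was the member called, with 675, 558 and 598 CPM in DI+LPS cells and 326, 331 and 345 CPM in DI cells. Every DI+LPS library lay above every DI library, and the log2 fold change was 0.87 ± 0.26 (SE; adjusted p = 0.0235) by edgeR. It stayed positive in all 18 alternatives (0.29 to 0.93) and was called in 10 of them. Among fits that left out 1 library it was called in 7 of 12 (adjusted p by edgeR 0.00629 to 0.119), and not without DI library 1, 2 or 3 or DI+LPS library 1 or 3. The value for the same gene in the other LPS comparison, which contrasts none of these libraries, was 0.72. The interaction, which tests whether the LPS effect differed with DI, was 0.15 ± 0.36 (SE; adjusted p = 0.887) by edgeR.

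Rps12 had 19.8, 22.04 and 20.2 CPM in DI+LPS cells and 53.4, 55.3 and 37.95 CPM in DI cells. These groups did not overlap and the libraries of each lay close together, and the log2 fold change was -1.24 ± 0.48 (SE; adjusted p = 0.0809) by edgeR, which did not pass. It was called in 7 of 18 alternatives (adjusted p by edgeR or DESeq2 0.000937 to 0.214), among them library totals (-1.83; adjusted p by edgeR 0.0162) and the fit without LPS library 3, which is in neither group (-1.25; 0.0257). Rpsa had 218, 257 and 347 CPM in DI+LPS cells and 391, 517 and 392 CPM in DI cells, with a log2 fold change of -0.66 ± 0.30 (SE; adjusted p = 0.140) by edgeR. This comparison and that of DI with Unst share the DI libraries.

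Few ribosomal protein genes passed the test for DI before LPS relative to LPS alone. In DI+LPS against LPS cells edgeR called 0 of 79 members higher and 1 lower (Rpl37), against 8.38% and 7.53% of all genes. At an unadjusted p under 0.05 there were 6 members, again without a share of all genes. DESeq2 called 0 higher and 4 lower (Rpl3, Rpl36, Rpl37 and Rps9), against 1029 and 1112 over all genes. The median of members was 0.09 and that of all genes 0.13. Libraries of DI+LPS all lay above LPS libraries for 6 members (7.59%, against 18.9% of all genes) and below them for 6 (7.59%, against 10.7%).

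Rpl37, a zinc-binding large-subunit protein, had 45.5, 21.4 and 56.5 CPM in DI+LPS cells and 58.3, 92.1 and 192 CPM in LPS cells. The highest value was that of LPS library 3. The log2 fold change was -1.43 ± 0.47 (SE; adjusted p = 0.0450) by edgeR, and -0.87 (adjusted p 0.144) without that library. The call held in 2 of 12 fits that left out 1 library, those without Unst library 2 or LPS library 1 (adjusted p by edgeR over all 12 fits 0.0200 to 0.179; without DI+LPS library 2, -1.12 and 0.179). Rps9, a small-subunit protein near the mRNA entry and among the 5 members with most counts, had 900.5, 1068 and 1276 CPM in DI+LPS cells and 1361, 1675 and 4598 CPM in LPS cells. All DI+LPS libraries lay below all LPS libraries, with a log2 fold change of -1.23 ± 0.43 (SE; adjusted p = 0.0603) by edgeR. Without LPS library 3 it was -0.51 (adjusted p by edgeR 0.307). Rps2, Rpl10, Rpl36, Rpl36a and Rpl39l were picked after their values were seen.

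**Figure D3:**
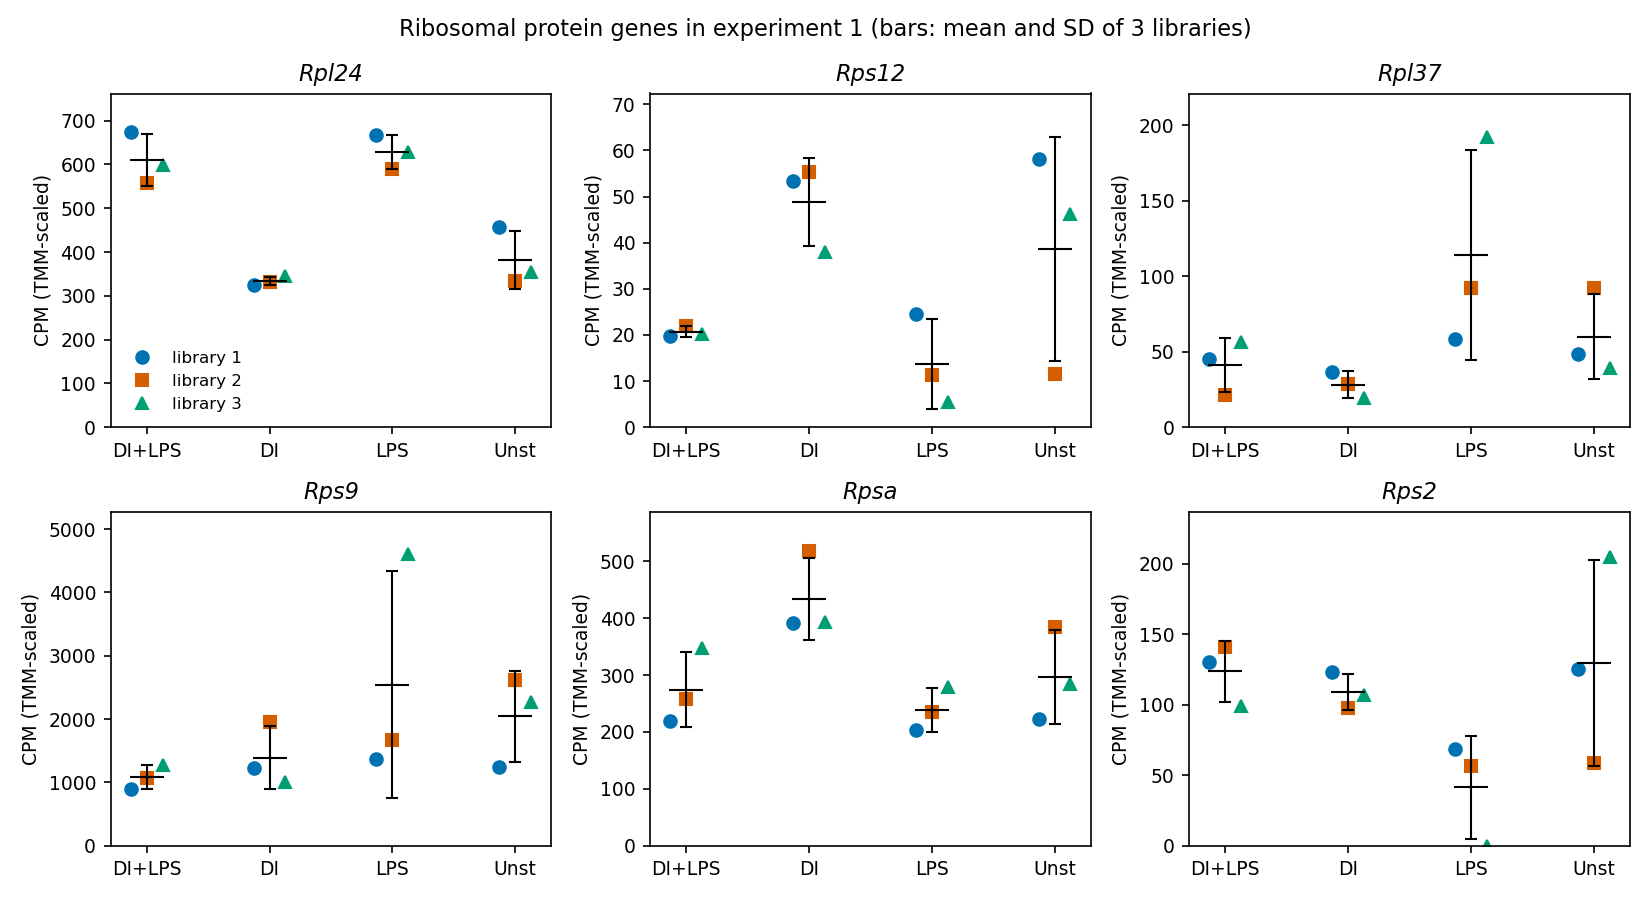
TMM-scaled CPM of 6 ribosomal protein genes in the 4 groups of experiment 1; symbols are libraries, bars the mean and SD of 3. Rpl24 is higher in both LPS-treated groups, and for Rpl37, Rps9 and Rps2 the LPS library 3 is the highest or the lowest of its group.

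For the interaction of DI and LPS edgeR called 0 members higher and 0 lower, against 1.39% and 1.52% of all genes, with 1 member (Rpl10) at an unadjusted p under 0.05. DESeq2 called 0 members, against 378 higher and 382 lower over all genes. The median of members was 0.34 and that of all genes 0.17. The largest fitted values were those of Rps2 at 1.71 ± 0.83 (SE; adjusted p = 0.287) by edgeR and of Rpl39l, a testis-enriched paralogue, at 1.51. The value of Rps2 was 1.19 without LPS library 3.

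Of 19 members picked for their known roles, 0 were called by edgeR in any of the 6 comparisons. At most 1 of them per comparison had an unadjusted p under 0.05, and DESeq2 called Rpl3 lower (DI+LPS against LPS), Rpsa lower (DI+LPS against DI) and Rpl13a lower (LPS against Unst). The stalk proteins that recruit translation factors showed no call: Rplp0 had 376, 280.3 and 378 CPM in DI+LPS cells, 394, 286 and 314 in DI cells, 405, 276 and 361 in LPS cells and 436, 362 and 336 in Unst cells. Its groups overlapped in each pair. Rplp1, the member with most counts in experiment 1, had 1636, 1646 and 2559.8 CPM in DI+LPS cells, 1335, 1913 and 1489 in DI cells, 1319, 1519 and 4698 in LPS cells and 1406, 2823 and 1669 in Unst cells. The highest value was again that of LPS library 3, without which the log2 fold change of Rplp1 for LPS against Unst was -0.44, against 0.35 with it.

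Rpl5 and Rpl11, which bind the 5S RNA and, when free, the p53 regulator MDM2, had log2 fold changes of -0.27 and 0.23 for LPS against Unst and 0.12 and -0.39 for DI against Unst. The values for LPS against Unst were -0.03 and -0.29 without LPS library 3, so that of Rpl11 turned. Rpl22l1, a paralogue of Rpl22 in the same family, had 3.41, 4.62 and 1.05 CPM in DI cells and 6.70, 11.2 and 6.40 CPM in Unst cells. It was lower in every DI library but did not pass at this depth, with a log2 fold change of -1.41 ± 0.79 (SE; adjusted p = 0.464) by edgeR. Rpl22 itself was at -0.12. Rpl41, the shortest of the proteins, had 406, 321 and 3.63 CPM in LPS cells and 573, 268 and 541 in Unst cells, and the value near 0 was LPS library 3. Rps27l, a paralogue of Rps27 that p53 induces in human cells, had 245, 241 and 563 CPM in LPS cells and 246, 313 and 276 in Unst cells, with a log2 fold change of 0.32, and -0.16 without LPS library 3.

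Irg1-/- and WT macrophages had overlapping levels of ribosomal protein mRNA. Members made up 1.27, 1.46 and 1.79% of the counts of Irg1-/- libraries and 1.37, 1.45 and 1.51% of WT libraries, which overlapped, with means of 1.51 ± 0.26% and 1.44 ± 0.07% (SD, n = 3 each). Without a term for the replicate number, edgeR called 0 of 79 members higher and 0 lower, against 0.0105% and 0.0527% of 9491 genes. A single member (Rps9) had an unadjusted p under 0.05, and DESeq2 called 0, against 15 higher and 29 lower over all genes. The median of members was 0.04 and that of all genes 0.01. Irg1-/- libraries all lay above WT libraries for 5 members (6.33%, against 6.13% of all genes) and below them for 5 (6.33%, against 7.23%).

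Libraries with the same replicate number resembled each other. Deviations from the group mean correlated at 0.47 to 0.64 across members between same-numbered libraries and at -0.41 to -0.14 between others, where all genes gave 0.35 to 0.45 and -0.26 to -0.14. These are correlations across genes, which are not independent replicates. Deviations sum to 0 within a group, so the values below 0 follow in part from those above 0. Of 79 members, 46 had their highest value in the same replicate number in both groups, and for 36 of them it was number 3. Rps23, a small-subunit protein of the decoding centre, had 280.3, 367 and 1184 CPM in Irg1-/- libraries and 307, 306 and 798 CPM in WT libraries. Rps24 had 641, 1881 and 853 CPM in Irg1-/- libraries and 949.6, 2021 and 853 CPM in WT libraries. Number 3 was high for Rps23 and number 2 for Rps24 in both genotypes.

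With the replicate number as a block, 4 of 79 members were called higher and 1 lower in Irg1-/- cells, against 2.9% and 3.36% of all genes. This pairing was read from the data and is not given by the labels. Rps9 had 534, 714 and 616 CPM in Irg1-/- libraries and 462, 488 and 449 CPM in WT libraries, higher in 3 of 3 pairs, with a blocked log2 fold change of 0.41 (adjusted p by edgeR 0.00476). The other members called higher were Rps14, at 0.37 (0.0262), Rpl17, at 0.37 (0.0314), and Rpl7l1, at 0.43 (0.0436), where the value in brackets is the adjusted p by edgeR. Rps29, a zinc-binding small-subunit protein, was lower in 3 of 3 pairs, with 599, 528 and 736 CPM in Irg1-/- libraries and 823, 737 and 798 CPM in WT libraries and a blocked log2 fold change of -0.35 (adjusted p by edgeR 0.0157).

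**Figure D4:**
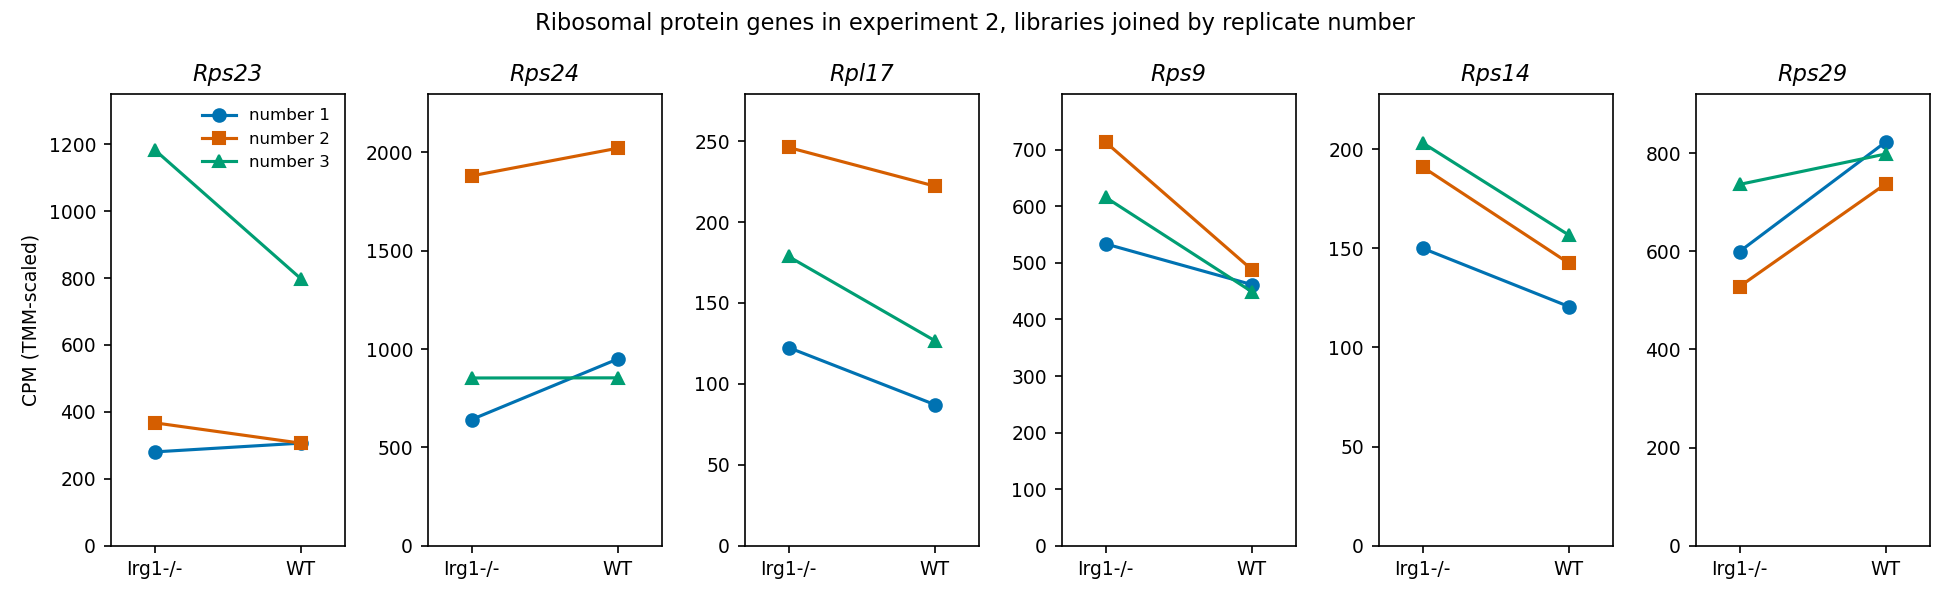
TMM-scaled CPM of 6 ribosomal protein genes in experiment 2, Irg1-/- left and WT right, with libraries of the same replicate number joined. The same number is highest on both sides for Rps23, Rps24 and Rpl17, and the lines of Rps9 and Rps14 slope down and those of Rps29 slope up towards WT.

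Other translation genes with TOP mRNAs also showed few calls. In LPS against Unst cells 2 of 24 were called higher (Pabpc1 and Hnrnpa1) and 2 lower (Eef2 and Naca), 8.33% each way against 16% and 18.4% of all genes, with a median log2 fold change of -0.32 against -0.24 over all genes. Eef2, the elongation factor that moves the ribosome along mRNA, had 233, 185 and 169 CPM in LPS cells and 358, 311 and 363 CPM in Unst cells, a log2 fold change of -0.81 ± 0.26 (SE; adjusted p = 0.0211) by edgeR. Hnrnpa1, an RNA-binding protein, had 77.5, 69.6 and 481 CPM in LPS cells and 32.4, 106 and 51.4 CPM in Unst cells. Its call rested on LPS library 3, without which the log2 fold change was 0.27. Pabpc1 was at 0.71, turned to -0.24 on library totals and was not called with DESeq2 size factors. Against LPS cells, DI+LPS cells had Naca called higher (1.05) and Hnrnpa1 lower (-1.85, and -0.41 without LPS library 3). That was 4.17% each way, against 8.38% and 7.53% of all genes. In the other 4 comparisons edgeR called 0 of the 24, with 1, 1, 3 and 0 of them at an unadjusted p under 0.05 (DI+LPS against DI, DI against Unst, the interaction, and Irg1-/- against WT, in that order).

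Genes of the mTOR and TOP control pathway were called in 3 comparisons of groups, each with an LPS-treated group, and in the interaction. Of 18 tested in LPS against Unst cells, 3 were higher (Larp1, Rictor and Eif4e) and 6 lower (Tsc1, Tsc2, Deptor, Sesn2, Eif4ebp1 and Eif4ebp2), 16.7% and 33.3% against 16% and 18.4% of all genes. The share higher was thus at the level of all genes. Larp1, which binds the cap and the TOP tract, had 1651, 2137 and 1739 CPM in LPS cells and 229.6, 369 and 243 CPM in Unst cells, without overlap. The log2 fold change was 2.72 ± 0.31 (SE; adjusted p = 2.13e-06) by edgeR, and 1.77 on library totals, on which Rictor (0.76) and Eif4e (0.27) were not called. Without LPS library 3 the call of Tsc2 was lost (adjusted p by edgeR 0.0506). In DI+LPS cells Larp1 had 1204, 1714 and 1225 CPM and in DI cells 398, 433 and 452 CPM, a log2 fold change of 1.69 ± 0.30 (SE; adjusted p = 0.00038) by edgeR.

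Eif4ebp1, a repressor of cap-dependent translation that mTOR inactivates, had 44.3, 33.7 and 29.5 CPM in DI+LPS cells, 30.01, 19.3 and 34.2 in DI cells, 7.28, 6.18 and 1.82 in LPS cells and 24.5, 25.2 and 25.6 in Unst cells. It was low in the LPS group alone. Its log2 fold change was 2.60 ± 0.42 (SE; adjusted p = 0.000401) for DI+LPS against LPS and -2.08 ± 0.42 (SE; adjusted p = 0.000842) for LPS against Unst by edgeR, and the interaction was 2.44 ± 0.54 (SE; adjusted p = 0.0188). Sesn2, a stress-induced inhibitor of mTOR complex 1, was at 0 in all 3 LPS libraries, with 3.72, 4.90 and 1.55 CPM in DI+LPS cells and 4.57, 14.3 and 4.64 CPM in Unst cells. It was called in both comparisons with LPS cells. In DI+LPS against DI cells Larp1, Eif4e and Myc were higher and Tsc1, Deptor and Eif4ebp2 lower, 16.7% each way against 11.4% and 7.56% of all genes, and the call of Eif4e was lost on library totals (0.54; adjusted p by edgeR 0.236). For DI against Unst and for Irg1-/- against WT edgeR called 0 genes of this list, with 4 and 1 at an unadjusted p under 0.05.

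Mitochondrial ribosomal proteins build the separate ribosome of that organelle, and few of their genes were called. Of 78 genes, 3 were called higher (Mrpl13, Mrpl52 and Mrpl54) and 11 lower in LPS against Unst cells, 3.85% and 14.1% against 16% and 18.4% of all genes, with a median log2 fold change of -0.31 against -0.24 over all genes. The lowest were Mrps35 at -2.36, Mrpl58 at -2.26 and Mrpl34 at -2.03. Against LPS cells, DI+LPS cells had 3 higher (Mrpl21, Mrpl33 and Mrpl34) and 1 lower (Mrpl13). These were 3.85% and 1.28%, against 8.38% and 7.53% of all genes. Against DI cells, DI+LPS cells had 3 higher (Mrpl30, Mrpl52 and Mrpl54) and 0 lower. These were 3.85% and 0%, against 11.4% and 7.56% of all genes. In DI against Unst, the interaction and Irg1-/- against WT, edgeR called 0, with 1, 9 and 3 at an unadjusted p under 0.05. Without LPS library 3 the lower calls of Mrpl1, Mrpl18, Mrpl33, Mrpl58 and Mrps33 against Unst and the higher call of Mrpl21 were lost, and on library totals the higher calls of Mrpl13, Mrpl52 and Mrpl54 against Unst and of Mrpl30, Mrpl52 and Mrpl54 against DI were lost, as was the lower call of Mrpl13 in DI+LPS against LPS (adjusted p by edgeR 0.0616). No test compared this list with the cytosolic one.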

How the data were processed

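Per the labels, barcoded oligo-dT primers gave strand-specific 3′ libraries amplified over 12 PCR cycles, and no molecular identifiers are described, so intervals on reads would cover counting error only. The authors deposited raw counts per gene for 24052 Entrez identifiers, of which 23969 matched a RefSeq symbol (GRCm38.p6). Unmatched ones held at most 0.738% and 2.14% of a library in experiments 1 and 2. The submitters' processing notes name STAR, HTSeq, DESeq2 and mm10, with no role or version; the annotation, strand option and treatment of reads with several matches are not given in the sources used here.

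Each experiment was fitted on the whole table with edgeR 4.0.16 (R 4.3.3): filterByExpr by group (minimum count 10; 10285 and 9491 genes kept), TMM scaling (factors 0.576 to 1.47 and 0.967 to 1.05), 1 mean for each group, and quasi-likelihood F tests (2-sided) with Benjamini-Hochberg adjustment over all genes tested, called at 0.05. The code was tested on simulated data. DESeq2 1.42.0, its size factors, library totals, no filter, fits of 2 groups, leave-one-out fits and a replicate block were alternatives. In experiment 2, deviations of same-numbered libraries correlated above 0.1 in 3 of 3 pairs over all genes, which makes the numbers a pairing from the data; in experiment 1 this held for 6 of 18.

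Members were chosen by symbol. Genes were named where called, if among 19 members picked for their roles or the 5 with most counts, or if called in the translation lists; others are marked in the text. Members and lists were chosen with earlier results of these data known. Some items are not reported here.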

Additional observations from a re-analysis of the deposited data

How the results depend on the processing

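Shares of counts depended on the denominator. On TMM-scaled totals the log2 ratio was -0.013 for DI+LPS against LPS (0.18 on all counts), 0.17 for DI+LPS against DI (-0.42), -0.068 for LPS against Unst (-1.04) and -0.25 for DI against Unst (-0.45). Without the 50 genes with most counts it was -0.20 for DI+LPS against DI, -0.81 for LPS against Unst and -0.38 for DI against Unst. With library totals in place of TMM, LPS against Unst turned below 0 for all 28 members above it, 17 of them called lower, and Rpl24 lost its call. Values were, for Rpl24 and the named members called lower, Rpl13 (-0.94), Rpl24 (-0.25), Rpl3 (-0.88), Rpl36al (-0.75), Rpl39 (-0.95), Rps14 (-0.94), Rps24 (-0.92) and Rps27l (-0.73). Rplp1 (-0.73) and Rpl11 (-0.83) were below 0 without a call, as was Pabpc1 (-0.24) of the translation genes (a check added after seeing the data). These scalings set different genes level, and the cause of the changes between them was not tested.

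Counts of called members were small and moved with nearly every choice. In DI+LPS against LPS (0 higher, 1 lower) they were 0 and 2 with DESeq2 size factors, 0 and 0 with library totals, 2 and 2 without the filter, 0 and 0 with the replicate block or with only the groups compared, 1 and 0 with only these groups and no LPS library 3 (added after seeing the data), and 0 and 4 by DESeq2. Leave-one-out fits gave 0 to 1 and 0 to 2. Calls over all genes were 862 and 774 in the main fit, 904 and 527 with library totals and 1029 and 1112 by DESeq2. With only the groups compared there were 273 and 380 over all genes. In DI+LPS against DI (1 higher, 0 lower) they were 0 and 1 with DESeq2 size factors, 0 and 4 with library totals, 0 and 1 without the filter, 3 and 2 with only the groups compared, and 1 and 3 by DESeq2. Leave-one-out fits gave 0 to 2 and 0 to 1. Calls over all genes were 1170 and 778 in the main fit, 709 and 2026 with library totals and 1201 and 1305 by DESeq2. With only the groups compared there were 1657 and 1539 over all genes. In LPS against Unst (1 and 1) they were 0 and 4 with DESeq2 size factors, 0 and 63 with library totals, 0 and 3 without the filter, 1 and 2 with the replicate block, 0 and 0 with only the groups compared, with or without LPS library 3, and 1 and 8 by DESeq2. Leave-one-out fits gave 0 to 1 and 0 to 3. Calls over all genes were 1641 and 1888 in the main fit, 853 and 4945 with library totals and 1719 and 2444 by DESeq2. With only the groups compared there were 1250 and 858 over all genes. In DI against Unst DESeq2 called 1 lower (0 by edgeR), against 295 higher and 324 lower over all genes. Without the filter the interaction had 1 higher (0 with it), against 236 higher and 261 lower over all genes.

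In experiment 2 the replicate block gave 4 higher and 1 lower in place of 0 and 0. The pairing by number there comes from correlations in these data, not from the labels. In experiment 1 the samples share only a number, and the replicate block values stand above; Rpl37 was not called with the block. Same-numbered DI+LPS and LPS libraries correlated at 0.097 to 0.17 over all genes and at 0.12 to 0.44 over members. The cause of the moves in calls was not tested. The depth of 955718 counts in LPS library 3 limits members with few counts there.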
